A study of Drosophila melanogaster with 15 samples.

Results

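A group of 124 uncharacterized genes was close to absent from some male antennal libraries and present in others. They were chosen by their measured levels: the symbol had to be CG followed by digits, the mean CPM (counts scaled to a library total of 1e6) had to be under 0.3 in at least 1 of the 5 groups, and every library of at least 1 other group had to reach 1 CPM. Genes on chromosome 4 and CG13659, CG31288 and CG14186 were set aside in advance, and none of these met the 2 limits. The 124 genes came from 17490 genes in the table, of which 6040 had a CG symbol and 3169 of those reached 1 CPM in every library of a group, so 3.91% of the CG genes at that level met the limits. Among the 6547 genes with other or no symbols that reached this level, 195 met them, or 2.98%. In the text below, low means a group mean under 0.3 CPM and on means at least 1 CPM in every library of the group. Since the levels chose the genes, their differences between groups are described here and not tested.

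The libraries were made from the third antennal segments of 7-day-old male Drosophila melanogaster, with 180 antennae pooled per library. Or47b1 mutants were Or47b1/Or47b1 and homozygous for Or47b-GAL4, UAS-mCD8GFP. Or67dGAL4 mutants were homozygous for Or67dGAL4, a GAL4 allele of the receptor gene, and for UAS-mCD8GFP. The fruLexA/fru4-40 males carried a pair of fruitless mutant alleles and a functional white gene (w+). W1118 SH males had been kept alone since the pupal stage, and the mutants and the w1118 GH males were group-housed, at 25 to 30 males per vial. The mCD8GFP reporter marks neurons of the matching receptor class and was carried by both receptor mutants, but not by the w1118 groups. The study compared these groups to ask how social experience, pheromone receptors and Fruitless alter antennal transcription. There were 3 libraries per group, except fruLexA/fru4-40 with 2 (replicates 2 and 3). A further library, fruLexA/fru4-40 replicate 1, was deposited in a separate table with a quality warning, and served here only as a library that had no part in the choice. The study describes its mutant and wild-type lines as differing in genetic background, so the named mutation and the rest of the genome cannot be told apart in any comparison of a mutant with w1118.

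A CG number is the symbol a predicted Drosophila gene keeps until a phenotype or a function earns it a name. Or47b and Or67d are odorant receptors with which antennal neurons of the male detect pheromones, and fruitless encodes male-specific transcription factors that shape these neurons. Some CG genes have a recognisable protein family even without a name, and these families are given below. All 124 genes were protein-coding in the RefSeq gene table.

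The 14 libraries held 8570425 to 14908299 counts, so that 0.3 CPM stood for 2.57 to 4.47 counts and 1 CPM for 8.57 to 14.9 counts. A count of 0 allowed up to 0.201 to 0.350 CPM (3 counts in a library), and this limit covers counting error only. Or47b lay between 0.683 and 1.05 CPM in the Or47b1 libraries, against 154 to 165 CPM in w1118 GH, and Or67d between 0.0924 and 1.09 CPM in the Or67dGAL4 libraries, against 86.2 to 93.2 CPM in w1118 GH. The white gene was at 102 to 126 CPM in Or47b1, 418 to 552 CPM in Or67dGAL4 and 13.2 to 17.3 CPM in fruLexA/fru4-40, against at most 0.0908 CPM in any w1118 library. Markers of antennal olfactory neurons and support cells summed to 11979 CPM or more in all 14 libraries. W1118 GH replicate 2 stood apart: its 7 testis markers, all above 0, summed to 82.3 CPM, against at most 4.13 CPM in any other library, and its 6 muscle markers summed to 451 CPM, against 52.6 and 124 CPM in the other w1118 GH libraries.

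**Figure D1:**
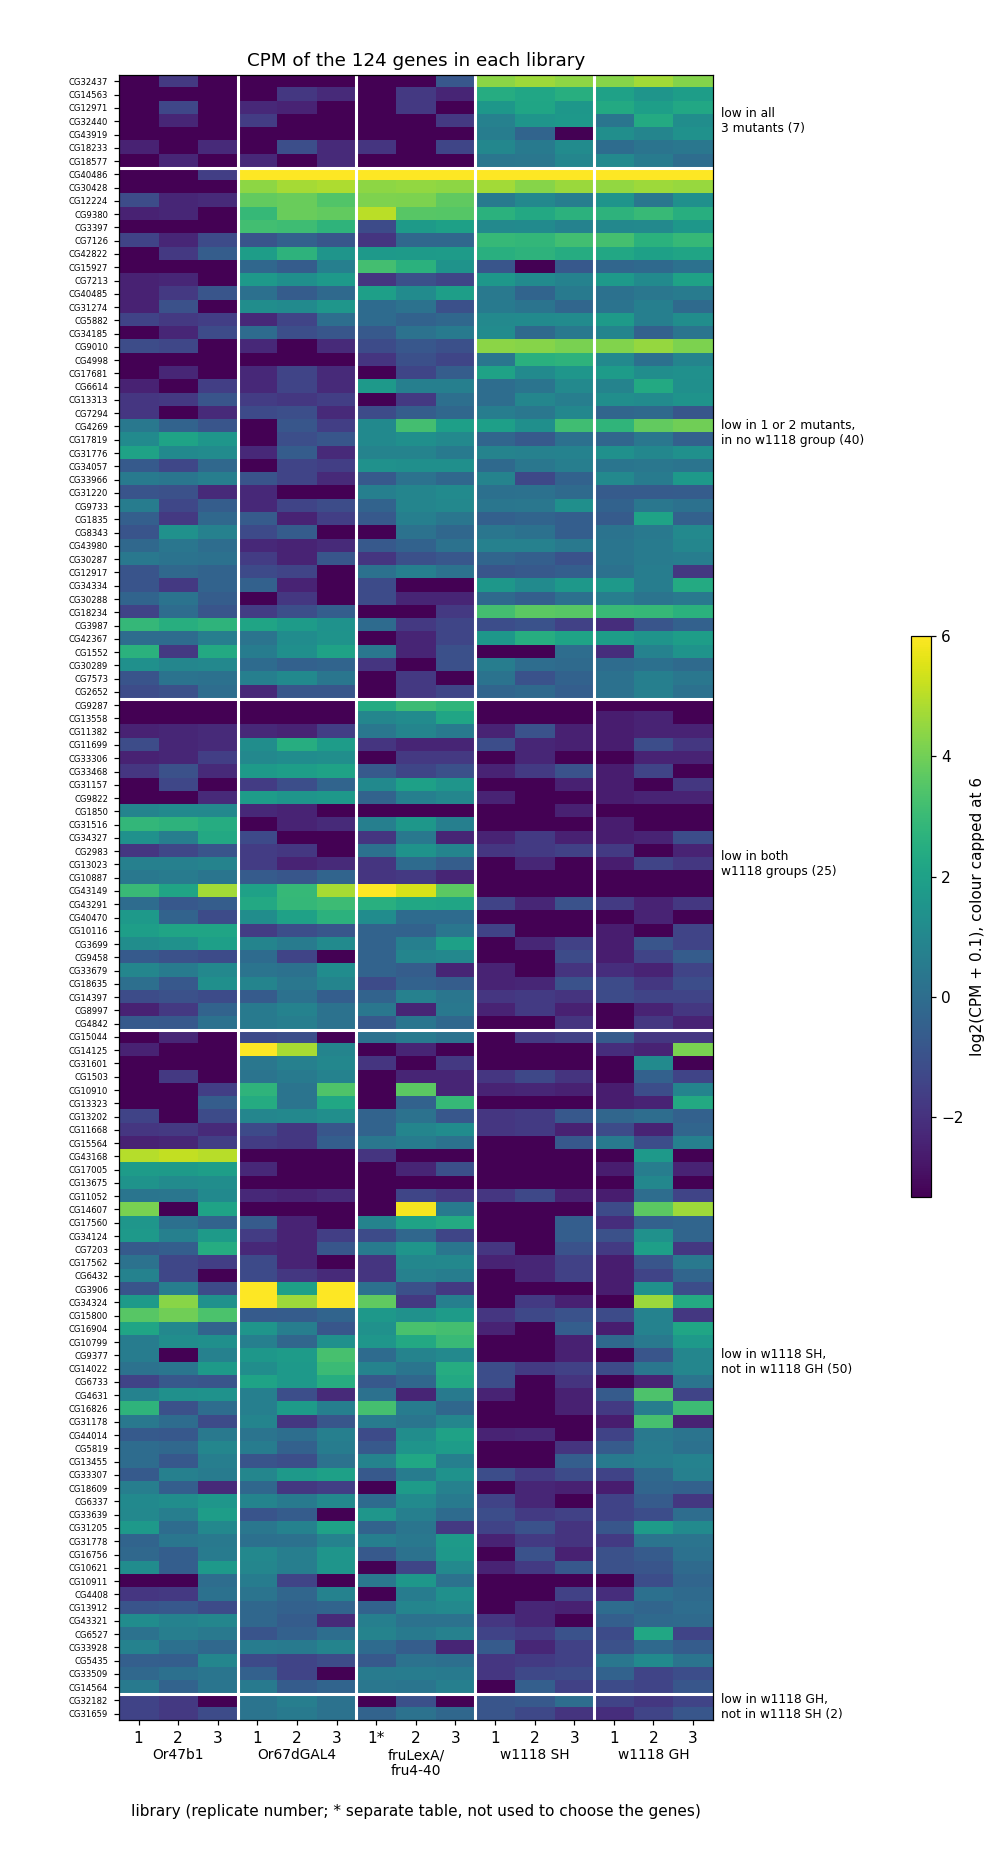
Level of each of the 124 genes (rows, symbols at the left) in each of 15 libraries (columns, grouped from Or47b1 to w1118 GH), as log2(CPM + 0.1) with the colour capped at 6; the rows are split by which groups were low. The 7 genes at the top are dark in every mutant library and bright in nearly all w1118 libraries, and the 50 genes of the block low in w1118 SH vary between libraries within w1118 GH.

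Most of the genes were weakly counted even where they were on. The highest group mean was 10 CPM or more for 15 genes, 5 to 10 CPM for 12, 2 to 5 CPM for 55 and under 2 CPM for 42, with a median of 2.60 CPM and a maximum of 528 CPM. The genes low in a group numbered 45 for Or47b1, 46 for Or67dGAL4, 29 for fruLexA/fru4-40, 75 for w1118 SH and 27 for w1118 GH. These 5 counts overlap, because a gene may be low in several groups. CPM is not corrected for transcript length, so levels are set against each other between libraries and not between genes. In these bulk libraries fewer cells of a type and less RNA per cell cannot be told apart.

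The genes were sorted by which genotypes lacked them. Mutants alone were low for 47 genes: 7 were low in all 3 mutants and 40 in 1 or 2 of them. Another 25 genes were low in both w1118 groups and on in at least 1 mutant. For the remaining 52 genes the w1118 groups, which share a genotype, fell on different sides of 0.3 CPM, 50 with w1118 SH low and 2 with w1118 GH low. The w1118 groups thus lay on the same side of 0.3 CPM for 72 of the 124 genes. For the other 52 the class was set by this limit on the group means. Such a split is not one of genotype, and the part of housing in it was not tested. Of the 50 genes low in w1118 SH, only 2 were on in w1118 GH. Without w1118 GH replicate 2, 11 of the 50 fell under 0.3 CPM in w1118 GH too. Among the 47 genes, 21 were on in every library of both w1118 groups.

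The 7 genes low in all 3 mutants and in no w1118 group were CG32437, CG14563, CG12971, CG32440, CG43919, CG18233 and CG18577. CG32437 had 0, 0.196 and 0 CPM in Or47b1, 0 in each Or67dGAL4 library, and 0 and 0.479 CPM in fruLexA/fru4-40. It had 20.8, 24.9 and 21.0 CPM in w1118 SH and 19.5, 26.2 and 19.4 CPM in w1118 GH. No mutant library came near a w1118 library, and w1118 SH was at least 63.6-fold higher than Or67dGAL4, taking 3 counts per library as the floor. CG14563 was at 0 to 0.189 CPM in the 8 mutant libraries, against 4.44 to 5.65 CPM in w1118 SH and 2.82 to 3.96 CPM in w1118 GH. CG12971 was at 0 to 0.293 CPM in the mutants, against 2.97 to 4.34 CPM in w1118 SH and 3.63 to 4.96 CPM in w1118 GH. CG32440 was at 0 to 0.217 CPM in the mutants, against 1.62 to 3.07 CPM in w1118 SH and 1.14 to 5.09 CPM in w1118 GH. CG32437, CG12971 and CG32440 are neighbours. They lie on chr3L:21357683-21359867, chr3L:21355100-21356495 and chr3L:21360179-21361229 (dm6), with 1188 and 312 bases between CG32437 and the other pair. CG43919 had no count in any mutant library, and 1 of its w1118 SH libraries was also at 0. CG18577 and CG18233 were weaker, with 0.913 to 2.01 CPM and 0.872 to 2.16 CPM over the 6 w1118 libraries.

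CG18233 stands 57 bases from CG18234 on chromosome 3L, and both belong to the prolyl 4-hydroxylase alpha subunit family, enzymes known for modifying collagen. CG18234 was low by the rule in fruLexA/fru4-40 only, at 0 and 0.192 CPM. It was scarce in the other mutants too, at 0.264, 0.880 and 0.455 CPM in Or47b1 and 0.217, 0.369 and 0.583 CPM in Or67dGAL4. The w1118 groups had 9.18, 12.6 and 11.8 CPM (SH) and 7.92, 7.54 and 6.03 CPM (GH). The pattern of CG18234 was thus near that of the 7 genes, and the 0.3 CPM limit set its place.

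**Figure D2:**
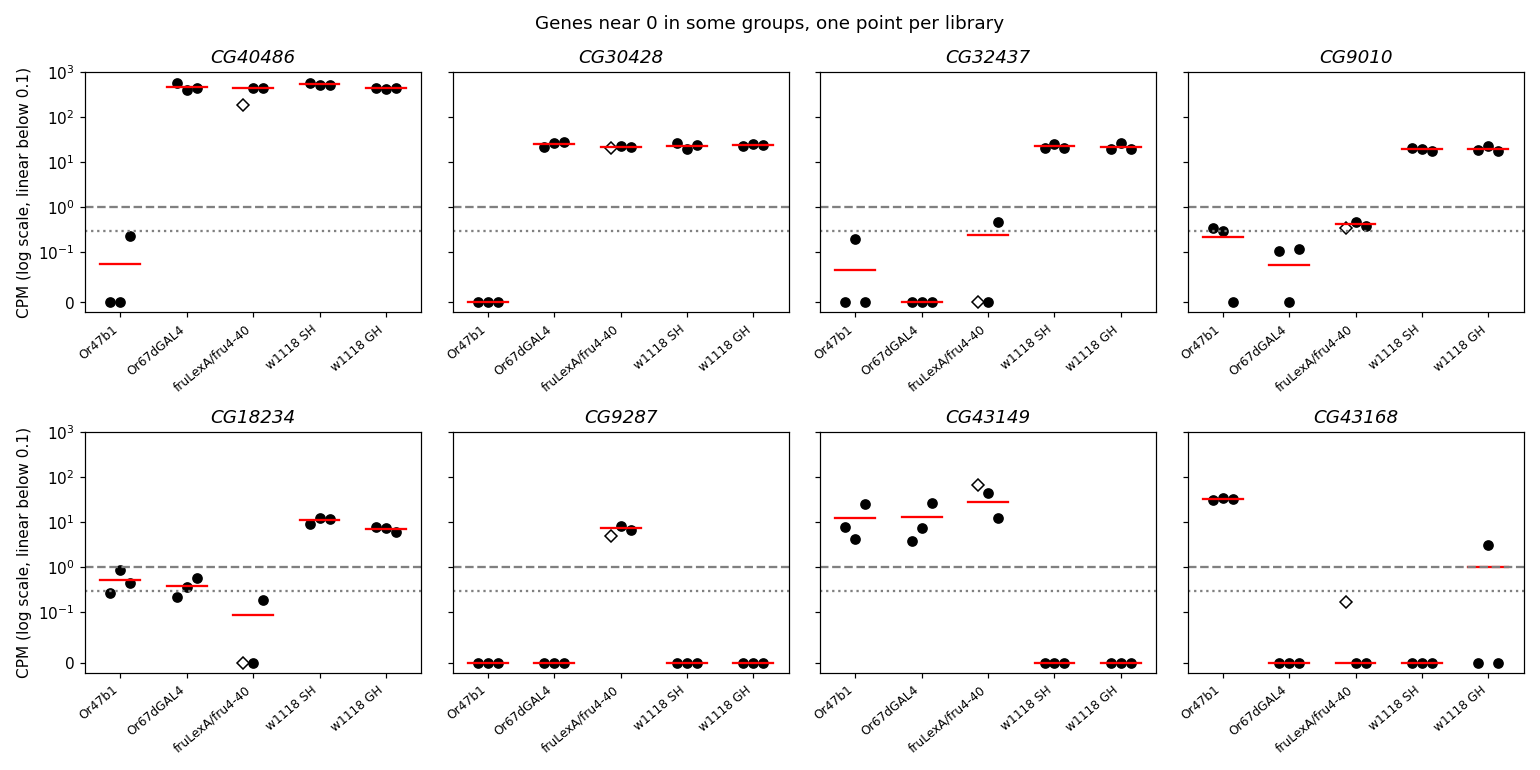
CPM of 8 of the genes in each library (log axis, linear below 0.1; filled points are the libraries that chose the genes, open diamonds fruLexA/fru4-40 replicate 1, red lines group means without it). The dotted line marks 0.3 CPM and the dashed line 1 CPM; each gene has groups at or near 0 beside groups of 5 CPM or more, and CG43168 is above 0 in w1118 GH in replicate 2 alone.

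Or47b1 alone was low for 13 genes. CG40486 had 0, 0 and 0.228 CPM in Or47b1, which is 2 counts in all. It had 572, 400 and 437 CPM in Or67dGAL4, 448 and 447 CPM in fruLexA/fru4-40, 566, 509 and 510 CPM in w1118 SH, and 446, 407 and 447 CPM in w1118 GH. The ratio of w1118 SH to Or47b1 in summed counts was 8032, with an exact 95% counting interval of 2223 to 66327. CG40486 lies on chrX:22958856-22960091 and encodes a short-chain dehydrogenase, listed in RefSeq under the synonym FOHSDR. Its neighbour CG40485, 518 bases away and of the same family, was also low in Or47b1, at 0.0879, 0.196 and 0.455 CPM. In the other groups CG40485 lay between 0.554 and 3.64 CPM, highest in fruLexA/fru4-40. The neighbours may share reads where their sequences are alike, and the counting does not show how such reads were split.

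CG30428 had no count in the Or47b1 libraries, against 21.5 to 28.5 CPM in Or67dGAL4, 22.5 and 21.2 CPM in fruLexA/fru4-40, 19.6 to 26.0 CPM in w1118 SH and 22.3 to 24.7 CPM in w1118 GH. Or67dGAL4 was at least 75.0-fold higher than Or47b1. CG30428 (chr2R:25251927-25254535, plus strand) lies within the span of CG9380 (chr2R:25183628-25255318, minus strand), and their exons share no bases. CG9380 was also low in Or47b1 alone, at 0.0879, 0.0978 and 0 CPM, against 4.85 to 14.7 CPM in the other 11 libraries. Its level was higher in Or67dGAL4 (7.39 to 14.7 CPM) and fruLexA/fru4-40 (11.8 and 11.5 CPM) than in most w1118 libraries (4.85 to 7.63 CPM).

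CG12224 and CG3397 lie 476 bases apart on chromosome 3R and encode enzymes related to aldo-keto reductases, which reduce carbonyl groups. CG12224 was at 0.351, 0.0978 and 0.114 CPM in Or47b1, 11.1 to 14.6 CPM in Or67dGAL4, and 17.9 and 13.1 CPM in fruLexA/fru4-40. It was at 1.35 to 1.92 CPM in w1118 SH and 1.18 to 2.75 CPM in w1118 GH. CG3397 had no count in Or47b1, 6.65 to 8.91 CPM in Or67dGAL4, 3.31 and 3.83 CPM in fruLexA/fru4-40, 1.66 to 2.12 CPM in w1118 SH and 1.95 to 2.92 CPM in w1118 GH. Both genes therefore had 3 levels: near 0 in Or47b1, intermediate in w1118, and highest in the other mutants without overlap with w1118. FruLexA/fru4-40 replicate 1, outside the choice, was in that order for CG12224 (18.3 CPM) but not for CG3397 (0.339 CPM).

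CG7126, on chromosome 3R 111 kb from fruitless, was at 0.264, 0.0978 and 0.342 CPM in Or47b1. It also stayed below 1 CPM in Or67dGAL4 (0.435 to 0.647 CPM) and fruLexA/fru4-40 (0.758 and 0.766 CPM), against 7.17 to 8.89 CPM in w1118 SH and 6.08 to 9.32 CPM in w1118 GH. CG42822 was at 0, 0.196 and 0.569 CPM in Or47b1 and at 2.80 to 6.46 CPM in all other libraries. CG15927 had no count in Or47b1, 6.16 and 2.68 CPM in fruLexA/fru4-40, and at most 1.52 CPM elsewhere. The other genes of this class had highest group means down to 1.40 CPM.

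Or47b1 and Or67dGAL4 together were low for 6 genes. CG9010, a relative of the glycolytic enzyme glyceraldehyde-3-phosphate dehydrogenase on chr2R:16958943-16960195, had 0.351, 0.293 and 0 CPM in Or47b1 and 0.109, 0 and 0.117 CPM in Or67dGAL4. Its fruLexA/fru4-40 libraries had 0.474 and 0.383 CPM, just above the limit. It had 20.9, 19.8 and 17.3 CPM in w1118 SH and 18.7, 23.1 and 17.7 CPM in w1118 GH, so that all 8 mutant libraries lay far below all 6 w1118 libraries. CG4998, a serine protease homolog (RefSeq synonym SPH66), had no count in Or47b1 or Or67dGAL4 and 0.379 and 0.287 CPM in fruLexA/fru4-40. It was uneven within w1118, at 1.17, 5.96 and 6.40 CPM in SH and 2.01, 0.999 and 1.74 CPM in GH. CG17681 was at 0 to 0.277 CPM in Or47b1 and Or67dGAL4, against 2.12 to 4.05 CPM in w1118 SH and 2.27 to 3.35 CPM in w1118 GH. CG6614, CG13313 and CG7294 completed the class, with 0 to 0.455 CPM in the low libraries.

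Or67dGAL4 alone was low for 12 genes, whose highest group means had a median of 1.91 CPM. CG4269 was at 0, 0.462 and 0.233 CPM in Or67dGAL4 and already scarce in Or47b1, at 1.23, 0.684 and 0.455 CPM. It had 9.19 and 3.74 CPM in fruLexA/fru4-40, 2.42 to 8.81 CPM in w1118 SH and 6.77 to 15.6 CPM in w1118 GH. CG31776, related to the transferases that start O-linked glycans on proteins, was at 0.109, 0.554 and 0.117 CPM in Or67dGAL4, against 1.62 to 1.71 CPM in w1118 SH and 1.91 to 2.48 CPM in w1118 GH. CG17819 was at 0 to 0.467 CPM in Or67dGAL4, with its highest levels in Or47b1 (2.11, 4.11 and 2.85 CPM) and 0.639 to 1.18 CPM in w1118 GH. CG34057, of the family of enzymes that extend O-linked glycans (RefSeq synonym dC1GalT6), was at 0 to 0.277 CPM in Or67dGAL4 and 1.10 to 1.18 CPM in w1118 GH. CG33966, CG31220, CG9733 and CG1835 had 0 to 0.543 CPM in Or67dGAL4. At these levels a library held few counts, and in most of the class the low and the higher libraries formed a gradient rather than a gap.

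FruLexA/fru4-40 alone was low for 7 genes, and fruLexA/fru4-40 with Or67dGAL4 for a further pair, CG34334 and CG30288. CG34334 had no count in fruLexA/fru4-40 and 0.652, 0.0924 and 0 CPM in Or67dGAL4, against 2.12 to 3.07 CPM in w1118 SH and 1.45 to 5.11 CPM in w1118 GH. CG42367 was at 0.0947 and 0.287 CPM in fruLexA/fru4-40, with 0.879 to 1.48 CPM in Or47b1, 1.09 to 2.68 CPM in Or67dGAL4, 2.97 to 5.45 CPM in w1118 SH and 2.72 to 3.56 CPM in w1118 GH. CG3987 differed from the others, since it was on in Or47b1 (7.29, 5.67 and 6.60 CPM) and Or67dGAL4 (4.24, 3.33 and 2.57 CPM) and below 1 CPM in fruLexA/fru4-40 (0.189 and 0.287 CPM), w1118 SH (0.249 to 0.404 CPM) and w1118 GH (0.134 to 0.639 CPM). An antisense transcript, asRNA:CR45600, shares 104 of the 1483 exon bases of CG3987 and averaged 50.4 CPM in Or47b1 and 35.3 CPM in Or67dGAL4, against 0.288 CPM in w1118 GH. Counting by strand is not stated, so reads of the pair cannot be told apart there. CG1552 was at 0.0947 and 0.383 CPM in fruLexA/fru4-40 but also at 0.196 CPM in 1 Or47b1 library, 0 in 2 w1118 SH libraries and 0.134 CPM in 1 w1118 GH library. CG30289 (0 and 0.383 CPM in fruLexA/fru4-40), CG7573 and CG2652 were low by smaller margins.

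Both w1118 groups were low for 25 genes. Of these, 19 were on in 1 mutant, 4 in 2 mutants and 2 in all 3. Or47b1 had 9 of them on, Or67dGAL4 had 12 and fruLexA/fru4-40, with 2 libraries in place of 3, had 12.

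Only fruLexA/fru4-40 was on for CG9287, CG13558 and CG11382, with all 4 other groups low. CG9287, which encodes a protein of the carboxylesterase family on chr2L:8676777-8679812, had 8.24 and 6.80 CPM in fruLexA/fru4-40 and no count in the other 12 libraries of the main table. The difference was at least 27.5-fold from w1118 GH. CG13558 had 2.18 and 4.31 CPM in fruLexA/fru4-40, 0 in all 9 libraries of Or47b1, Or67dGAL4 and w1118 SH, and at most 0.0908 CPM in w1118 GH. CG11382 had 1.80 and 1.34 CPM in fruLexA/fru4-40 and at most 0.404 CPM elsewhere.

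Or67dGAL4 was the group on for CG11699 (2.28, 5.45 and 3.50 CPM, against 0.0671 to 0.363 CPM in w1118 GH) and CG33306 (1.96, 2.22 and 2.33 CPM, against 0 to 0.0913 CPM in w1118 GH), with the other 4 groups low. Exons of CG11699 share 77.4% of their bases with asRNA:CR44266, which averaged at most 0.113 CPM in any group, and 19.5% with Kmn1. Kmn1 averaged 8.94 CPM in Or67dGAL4, where CG11699 was on, and 3.56 CPM in w1118 GH, so reads of the pair are uncertain in the shared bases. CG33468 (3.26, 3.60 and 4.08 CPM) and CG9822 (3.48, 2.77 and 3.03 CPM) were likewise highest in Or67dGAL4, and CG9822 was on in fruLexA/fru4-40 too, at 1.52 and 1.82 CPM. In w1118 GH these had at most 0.273 and 0.0913 CPM. CG31157 was low in Or47b1 and both w1118 groups and had 3.88 and 2.78 CPM in fruLexA/fru4-40.

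Or47b1 was the group on for CG1850, at 1.76, 2.05 and 1.94 CPM, against 0 in each w1118 GH library. CG10887 had 1.23, 1.37 and 1.14 CPM in Or47b1 and no count in any of the 6 w1118 libraries. CG31516 had 7.12, 6.45 and 5.35 CPM in Or47b1 and 2.94 and 1.53 CPM in fruLexA/fru4-40, with at most 0.117 CPM in Or67dGAL4 and at most 0.0671 CPM in w1118. CG34327 (1.47 to 4.78 CPM in Or47b1) and CG13023 (1.56 to 1.71 CPM in Or47b1) were also highest in Or47b1, against at most 0.365 and 0.273 CPM in w1118 GH. CG2983, a relative of CG34057 (RefSeq synonym dC1GalT8), had 2.65 and 1.72 CPM in fruLexA/fru4-40 and at most 0.455 CPM elsewhere.

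Of the 25 genes, 11 had only the w1118 groups low. CG43149 (chr3L:53873-54751) had 7.91, 4.30 and 25.7 CPM in Or47b1, 3.91, 7.58 and 27.2 CPM in Or67dGAL4, and 43.6 and 12.5 CPM in fruLexA/fru4-40. It had no count in any of the 6 w1118 libraries, so fruLexA/fru4-40 was at least 102-fold higher than w1118 GH, although its libraries within each mutant differed by 3-fold or more. CG43291 was at 4.89 to 8.28 CPM in Or67dGAL4, 4.64 and 4.31 CPM in fruLexA/fru4-40 and 0.489 to 0.879 CPM in Or47b1, against 0.0908 to 0.201 CPM in w1118 GH. CG40470, related to M1 aminopeptidases, had 2.28, 3.97 and 6.18 CPM in Or67dGAL4 and a single count in the 6 w1118 libraries. CG3699, a short-chain dehydrogenase relative (RefSeq synonym DECR2), was on in all 3 mutants, at 1.39 to 3.83 CPM over 8 libraries, against 0.0671 to 0.454 CPM in w1118 GH. CG10116, a lipase relative, had 3.60, 4.20 and 4.21 CPM in Or47b1 and 0 to 0.274 CPM in w1118 GH.

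The largest set, 50 genes, was low in w1118 SH and not in w1118 GH, and most of it was uneven within w1118 GH. Only CG13455 and CG5435 were on in every w1118 GH library, at 1.34 to 1.64 CPM and 1.10 to 2.09 CPM, against 0 to 0.582 CPM and 0.180 to 0.249 CPM in w1118 SH. The lowest w1118 GH library was above the highest w1118 SH library for 17 of the 50. The limits that define this set favour that order, and its share over all genes was not counted, so nothing is read from it. Of the 50 genes, 3 reached 1 CPM in w1118 GH replicate 1, 23 in replicate 2 and 21 in replicate 3, and 28 were under 0.3 CPM in replicate 1. Mutants were on for many of them: Or47b1 for 14, Or67dGAL4 for 18 and fruLexA/fru4-40 for 29. With 2 libraries in place of 3, fruLexA/fru4-40 meets the limit for on more easily, so its count cannot be ranked against the others.

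The sums of muscle, fat body and haemocyte markers were also lower in w1118 SH than in w1118 GH. Taken singly, only Mhc, Act57B, apolpp and Hml were lower without overlap. Hml had 41.8 to 46.9 CPM in w1118 SH and 61.2 to 102 CPM in w1118 GH, and apolpp 61.1 to 89.7 CPM and 96.9 to 150 CPM. The other markers of these lists overlapped, such as Yp2 at 3.87 to 4.90 CPM and 3.93 to 4.02 CPM. The 6 muscle markers summed to 41.8, 7.07 and 46.2 CPM in w1118 SH, below each of the other 11 libraries (52.6 to 451 CPM), and to 52.6, 451 and 124 CPM in w1118 GH. The 5 fat body markers summed to 67.2 to 95.5 CPM in w1118 SH and 102 to 156 CPM in w1118 GH, and the 4 haemocyte markers to 52.7 to 58.0 CPM in w1118 SH and 72.2 to 123 CPM in w1118 GH. W1118 GH replicate 1, in which the fewest of the 50 genes reached 1 CPM, also had the lowest muscle, fat body, haemocyte and gut sums of its group. Antennal markers went the other way, with sums of 13330.5 to 13952.3 CPM in w1118 SH and 12123.1 to 12507.2 CPM in w1118 GH. The remaining lists overlapped: eye markers summed to 7.47 to 28.3 CPM in w1118 SH and 8.38 to 11.0 CPM in w1118 GH. Accessory gland markers summed to 0.498 to 0.909 CPM and 0.545 to 1.10 CPM. In fruLexA/fru4-40 replicate 2, 35 of the 50 genes reached 1 CPM with haemocyte markers at 51.1 CPM. In Or67dGAL4 replicate 1, 27 did so with fat body markers at 87.8 CPM. The part of these tissues in the result was not tested.

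**Figure D3:**
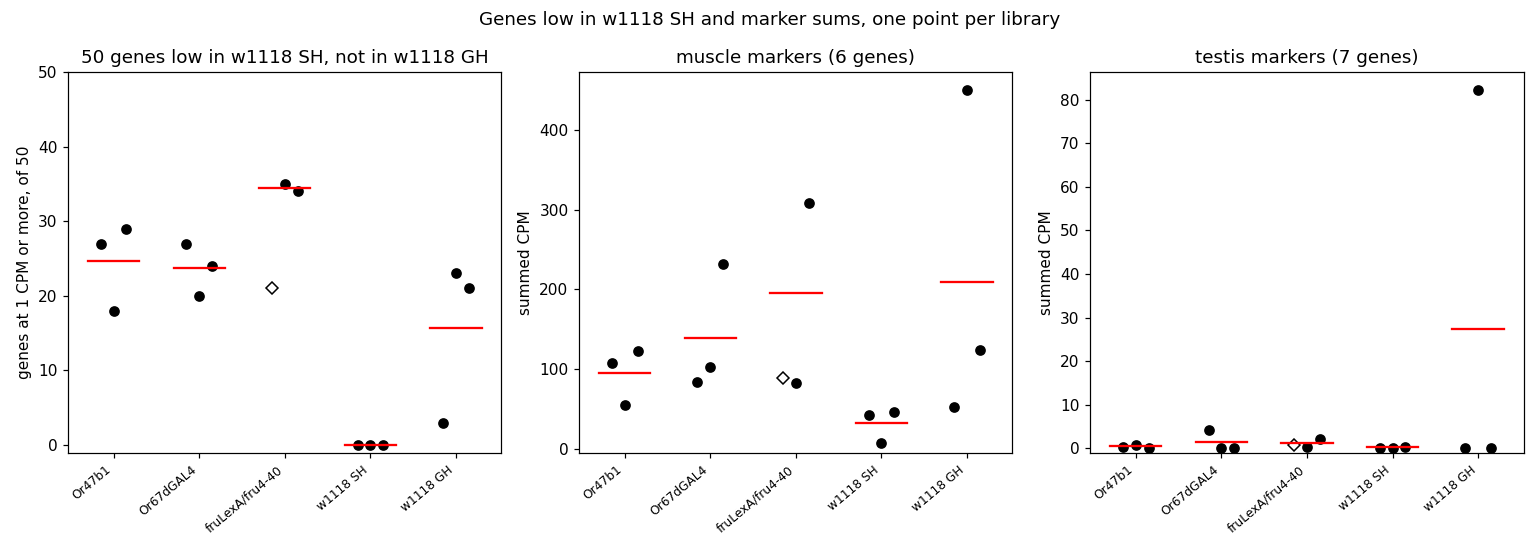
Left, the number of the 50 genes low in w1118 SH and not in w1118 GH that reached 1 CPM in each library; middle and right, the summed CPM of 6 muscle and 7 testis markers (1 point per library, open diamond fruLexA/fru4-40 replicate 1, red lines group means without it). W1118 SH has 0 genes in each library and the lowest muscle sums, and w1118 GH ranges from 3 genes in replicate 1 to 23 in replicate 2, the library with testis markers at 82.3 CPM.

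Several of the 50 genes were counted in w1118 GH replicate 2 and hardly in the other w1118 libraries. For 12 of the 50 (and for CG1835) replicate 2 was at 1 CPM or more and over 3 times both other w1118 GH libraries. CG31178, listed in RefSeq under the synonym Tes87, had 0.0671, 9.63 and 0.0913 CPM in w1118 GH, and CG4631 had 0.537, 10.4 and 0.274 CPM. CG31601 had 0, 2.09 and 0 CPM. Without that library 11 of the 50 genes fell under 0.3 CPM in w1118 GH as well. CG43168, CG17005 and CG13675, on in Or47b1 alone, are among them. CG43168 (chr3L:6275787-6277035) had 30.9, 35.0 and 32.1 CPM in Or47b1, none in Or67dGAL4, fruLexA/fru4-40 and w1118 SH, and 0, 3.09 and 0 CPM in w1118 GH. CG17005 had 3.34, 3.32 and 3.64 CPM in Or47b1 and 0.0671, 1.45 and 0.0913 CPM in w1118 GH. CG13675, with the chitin-binding domain of peritrophic and cuticle proteins, had 2.64, 2.15 and 2.28 CPM in Or47b1 and 0, 1.91 and 0 CPM in w1118 GH. With w1118 GH replicate 2 set aside, all 3 had 0 to 0.0913 CPM in the 5 other w1118 libraries, of both housings. Falling under 0.3 CPM without that library is what grouped them here, so no conclusion on housing is drawn.

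Some members of this set also varied widely between replicates of 1 group. Over all 124 genes, 72 combinations of gene and group had a library at 5 CPM or more, and in 17 of them, from 11 genes, the highest library was 10 or more times the lowest or the lowest was at 0. CG34324 had 552, 24.7 and 593 CPM in Or67dGAL4, 3.25, 19.9 and 2.50 CPM in Or47b1, at most 0.202 CPM in w1118 SH, and 0, 23.9 and 5.11 CPM in w1118 GH. CG3906 had 76.8, 3.88 and 102 CPM in Or67dGAL4, none in w1118 SH, and 0.0671, 2.54 and 0.365 CPM in w1118 GH. Or67dGAL4 replicate 2 was the lowest of its group for both, and still above every library of the other groups. CG14125, a chitin-binding protein relative, had 110, 27.5 and 1.75 CPM in Or67dGAL4, none in w1118 SH, and 0.134, 0.0908 and 17.2 CPM in w1118 GH. CG14607, of the same domain family, had 17.3, 0 and 4.10 CPM in Or47b1, 57.9 and 1.34 CPM in fruLexA/fru4-40, and 0.335, 12.4 and 24.8 CPM in w1118 GH, with no count in Or67dGAL4 or w1118 SH.

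CG13323 and CG10910 were counted in single libraries of several groups. CG13323 had 5.22, 1.11 and 4.55 CPM in Or67dGAL4, 0.663 and 7.57 CPM in fruLexA/fru4-40 and 0.0671, 0.0908 and 5.02 CPM in w1118 GH. CG10910 had 6.52, 1.11 and 10.7 CPM in Or67dGAL4, 12.3 and 0.0958 CPM in fruLexA/fru4-40 and 0.0671, 0.363 and 1.74 CPM in w1118 GH. The 6 gut markers summed to 49.0, 10.6 and 24.2 CPM in Or67dGAL4, 18.8 and 7.66 CPM in fruLexA/fru4-40, 4.34 to 5.76 CPM in w1118 SH and 5.10, 7.54 and 13.3 CPM in w1118 GH. The gut sum and CG13323 had the same order of libraries within Or67dGAL4 and within w1118 GH, and the opposite order within fruLexA/fru4-40. The part of gut RNA in these levels was not tested.

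Relatives of enzymes that lengthen or reduce fatty acids were among the 50 genes. CG16904, related to fatty acid elongases, had 9.94 and 9.29 CPM in fruLexA/fru4-40, 0.0900, 0 and 0.582 CPM in w1118 SH, and 0.0671, 1.63 and 4.38 CPM in w1118 GH. Its relative CG9458, 1935 bases away, was low in both w1118 groups and had 1.80 and 1.92 CPM in fruLexA/fru4-40. CG17560 and CG17562, related to fatty acyl-CoA reductases and 796 bases apart, were both low in Or67dGAL4 and w1118 SH. They had 4.17 and 5.08 CPM and 1.89 and 1.92 CPM in fruLexA/fru4-40, against 0.134 to 0.731 CPM and 0.0671 to 1.28 CPM in w1118 GH. CG18609, another elongase relative, had 3.41 and 1.63 CPM in fruLexA/fru4-40, 0 to 0.101 CPM in w1118 SH and 0.0671 to 0.727 CPM in w1118 GH. CG15800, listed in RefSeq as SkpG and outside these families, had 11.8, 15.7 and 10.2 CPM in Or47b1, 2.56 and 3.35 CPM in fruLexA/fru4-40, 0.180 to 0.415 CPM in w1118 SH and 0.335, 1.63 and 0.183 CPM in w1118 GH. CG10799 had 4.83 and 7.95 CPM in fruLexA/fru4-40, at most 0.0831 CPM in w1118 SH, and 0.805, 1.27 and 3.11 CPM in w1118 GH.

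The opposite split, low in w1118 GH and not in w1118 SH, was found for CG32182 and CG31659. CG32182 had 0.450, 0.505 and 0.914 CPM in w1118 SH and 0.268, 0.182 and 0.274 CPM in w1118 GH, and was on in Or67dGAL4 at 1.05 to 1.48 CPM. CG31659 overlapped between the w1118 groups, at 0.166 to 0.450 CPM in SH and 0.134 to 0.457 CPM in GH.

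All 124 genes passed the filter on low counts of the test across all genes, which they had to, since each was on in a group. EdgeR's quasi-likelihood test with Benjamini-Hochberg adjustment was run over 10358 genes. In Or47b1 against w1118 GH, 51 of the 124 genes passed an adjusted p of 0.05 (20 higher, 31 lower). This stands beside 20.4% of all genes tested (10.5% higher, 9.97% lower). In Or67dGAL4 the count was 55 (26 higher, 29 lower), beside 29.5% of all genes (14.4% higher, 15.1% lower). In fruLexA/fru4-40 it was 53 (32 higher, 21 lower), beside 30.8% (15.5% higher, 15.3% lower). In w1118 SH against w1118 GH it was 4 (0 higher, 4 lower), beside 0.994% of all genes (0.685% higher, 0.309% lower). The 4 genes were CG10799, CG5435, CG13912 and CG5819, and the last pair is named here after the values were seen. The choice of the genes used these same contrasts, so nothing is read from these shares. The count for fruLexA/fru4-40 was 22 without its replicate 2, 28 without its replicate 3 and 35 without w1118 GH replicate 1, and the 4 genes of w1118 SH became 0 to 7 when a library was left out. DESeq2 called 12 of the 124 genes in w1118 SH, and its share over all genes is not given here, so nothing is read from that count. The median log2 fold change over the 124 genes was -0.23 in Or47b1, -0.20 in Or67dGAL4, 0.62 in fruLexA/fru4-40 and -0.89 in w1118 SH, beside -0.01, -0.02, 0.04 and -0.00 over all genes tested.

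FruLexA/fru4-40 replicate 1 gave a check that the choice had not used. It held 5907543 counts, so that 0.3 CPM stood for 1.77 counts, and its antennal markers summed to 7589 CPM, against 14260 and 14283 CPM in replicates 2 and 3. Of 88 genes with replicates 2 and 3 low or on, 62 lay on the same side in replicate 1: 24 of 29 low genes were under 0.3 CPM and 38 of 59 on genes reached 1 CPM. A further 19 fell between the limits, and 7 were on the opposite side. CG14607, CG18609 and CG4408 had no count and CG17562 and CG6432 had 0.169 CPM where replicates 2 and 3 were on. CG1552 had 1.18 CPM and CG3906 1.02 CPM where those replicates were low. Among the genes with wide gaps, CG9287 had 5.08 CPM, CG13558 1.86 CPM, CG43149 67.4 CPM and CG30428 21.0 CPM, and CG32437, CG14563, CG12971, CG32440, CG43919, CG18577 and CG18234 had no count. CG40486 was at 181 CPM, below every other library outside Or47b1.

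**Figure D4:**
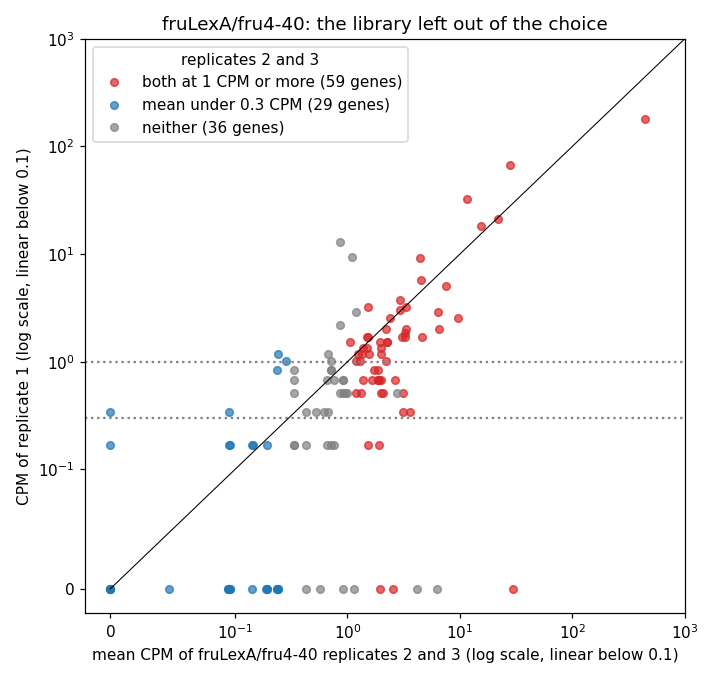
CPM in fruLexA/fru4-40 replicate 1 (vertical) against the mean of replicates 2 and 3 (horizontal), 1 point per gene, both axes logarithmic above 0.1 CPM and linear below; colours give the side of replicates 2 and 3, dotted lines mark 0.3 and 1 CPM, and the diagonal marks equal values. Of the 6 genes with a mean above 10 CPM, 5 lie within 3-fold of the diagonal and CG14607 is at 0 in replicate 1.

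The w1118 SH libraries were held out in the same way, by repeating the choice on the other 4 groups. That gave 90 genes. For 59 of them w1118 GH was low or on, and w1118 SH was on the same side for 46 of the 59: 25 of 27 low genes and 21 of 32 on genes. The other 13 lay between the limits and none was on the opposite side. Of 31 genes with w1118 GH between the limits, 20 were low in w1118 SH. Holding out w1118 GH in its place gave 118 genes and a different picture on the low side. Of 74 genes low in w1118 SH, 25 were low in w1118 GH, 48 lay between the limits and CG13455 was on, and of 26 genes on in w1118 SH, 21 were on in w1118 GH and 5 lay between the limits.

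By position the genes were spread over the 5 large chromosome arms, with 27 on 2L, 26 on 2R, 26 on 3L, 29 on 3R and 16 on X. The X held 12.9% of the genes, against 18.6% of the CG genes that were on in a group. Their exon length had a median of 1234.5 bases, against 1737 bases for those CG genes. Within 10 kb of another gene of the list lay 26 of the 124 (21.0%), and 75.3% of the 3156 CG genes off chromosome 4 that were on in a group had another such gene within 10 kb. The larger set is denser, so the shares cannot be read against each other. Of 16 pairs within 10 kb, at 12 loci, 7 pairs had the same low groups, and so did all the genes at 5 of the loci. These were the 3 genes at CG32437, low in all mutants, the neighbours at CG40486, CG30428 and CG12224, low in Or47b1, and CG17560 with CG17562. The low groups differed at the other 7 loci, among CG33306, CG8997 and CG33307, and between CG11668 and CG31157, CG30288 and CG30289, CG18234 and CG18233, CG16904 and CG9458, CG33509 and CG14397, and CG31178 and CG17819. CG13202 was 34.8 kb from Or47b and low in Or47b1 and w1118 SH, at 0 to 0.342 CPM in Or47b1, against 0.639 to 0.908 CPM in w1118 GH.

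The neighbours outside the list had no part in the choice and were tested over all genes with edgeR. Around the 26 genes low in Or47b1 and in no w1118 group, 63 tested neighbours lay within 10 kb, of which 18 (28.6%) were lower in Or47b1 than in w1118 GH and 8 (12.7%) higher, beside 9.97% and 10.5% of all genes. Around the 27 such genes of Or67dGAL4, 18 of 76 neighbours (23.7%) were lower and 13 (17.1%) higher, beside 15.1% and 14.4% of all genes. Around the 16 genes of fruLexA/fru4-40, 3 of 26 neighbours (11.5%) were lower and 4 (15.4%) higher, beside 15.3% and 15.5% of all genes. Around the 9 genes low in both w1118 groups and on in Or47b1, 3 of 18 neighbours (16.7%) were higher and 2 (11.1%) lower. For the 12 such genes of Or67dGAL4, 8 of 35 (22.9%) were higher and 7 (20%) lower. For the 12 of fruLexA/fru4-40, 7 of 35 (20%) were higher and 8 (22.9%) lower. The shares over all genes are those given above. Neighbours of a locus share it and are not independent, so no test was made of these shares.

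The neighbours given next were chosen after their values were seen, 5 for a difference in the direction of the listed gene and 1 for a difference against it. LncRNA:CR45502, 29 bases from CG40486, had no count in Or47b1, against 9.73, 9.44 and 11.4 CPM in w1118 GH, at least 29.9-fold less (edgeR adjusted p = 7.81e-08). CG42821, 262 bases from CG42822, had 1.32, 2.05 and 0.911 CPM in Or47b1 and 13.7, 12.3 and 11.5 CPM in w1118 GH (log2 fold change -3.05, standard error 0.24, edgeR adjusted p = 1.11e-06). LncRNA:CR44377, 9200 bases from CG9010, had no count in any of the 9 mutant libraries, replicate 1 of fruLexA/fru4-40 included, against 3.13 to 6.30 CPM in w1118 SH and 2.74 to 4.63 CPM in w1118 GH (edgeR adjusted p = 0.000228 in Or47b1 and 0.000209 in Or67dGAL4). LncRNA:CR43656, 654 bases from CG34334, had 0 and 0.0958 CPM in fruLexA/fru4-40 and 1.36 to 4.47 CPM in w1118 GH (log2 fold change -5.66, standard error 1.02, edgeR adjusted p = 0.00141). Polr1E, an RNA polymerase I subunit gene 442 bases from CG7126, was lower by less, with 15.9 to 16.5 CPM in Or47b1 and 32.0 to 34.2 CPM in w1118 GH (log2 fold change -0.95, standard error 0.08, edgeR adjusted p = 1.71e-06). In the opposite direction, dyw, 9800 bases from CG2652 (0.189 and 0.287 CPM in fruLexA/fru4-40 and 1.00 to 1.54 CPM in w1118 GH), had 121 and 112 CPM in fruLexA/fru4-40 and 5.30, 7.99 and 6.94 CPM in w1118 GH (log2 fold change 4.15, standard error 0.16, edgeR adjusted p = 4.92e-09). Reads that run past an annotated gene end could be shared by the closest neighbours, and this was not tested.

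**Figure D5:**
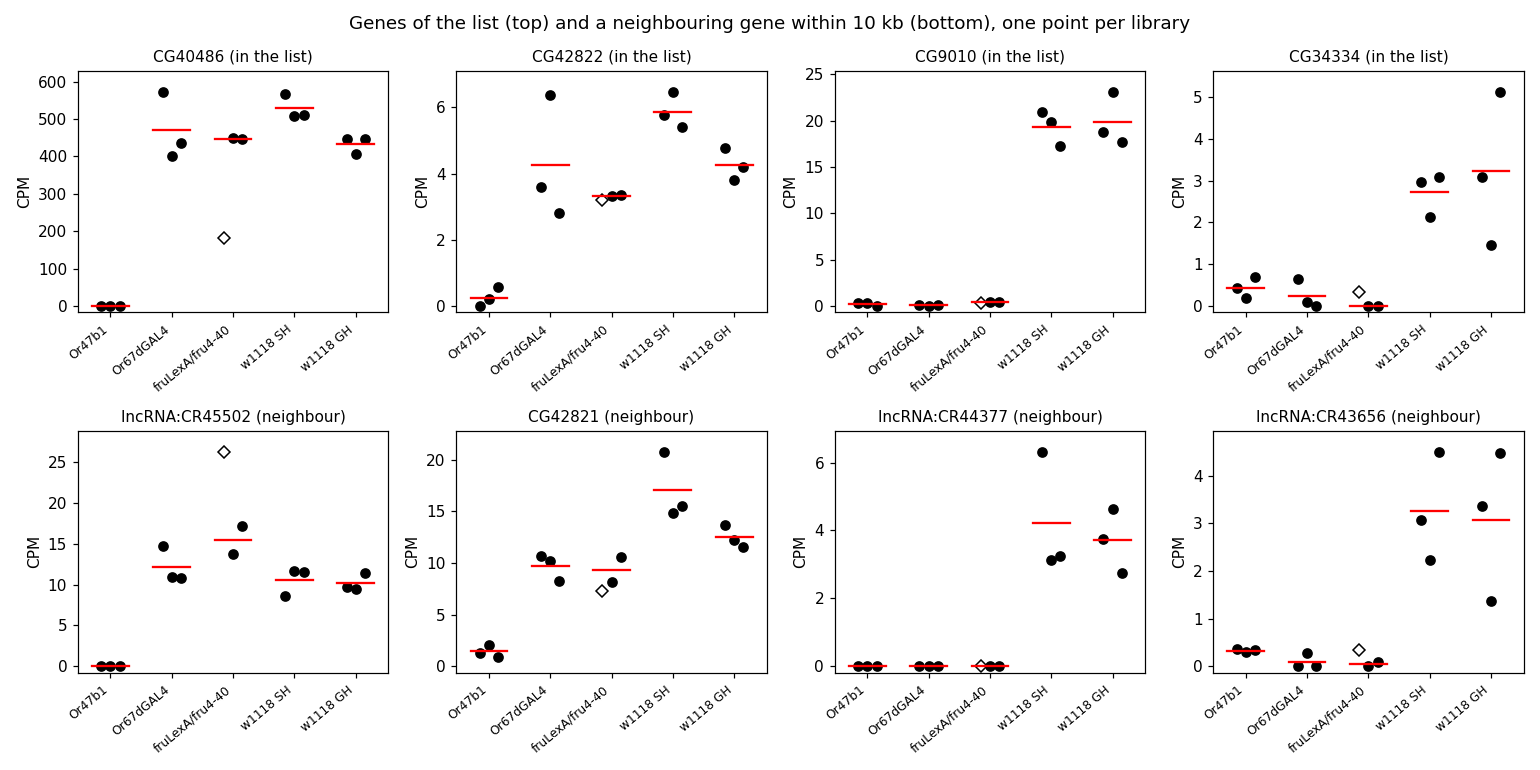
CPM by library of 4 genes of the list (top) and of a gene within 10 kb that the choice did not use (bottom), picked after seeing the values for a difference in the same direction; filled points are the 14 libraries of the main table, open diamonds fruLexA/fru4-40 replicate 1 and red lines group means without it. Each neighbour is at or near 0 in the same groups as the gene above it, except that CG42821 keeps 0.911 to 2.05 CPM in Or47b1.

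Among recognisable families, 9 of the 124 genes carried a RefSeq synonym of the serine protease series, trypsin-like enzymes and inactive homologs known in insects for digestion, immunity and extracellular signalling. Low in mutants only were 6 of them: CG4998, CG31220, CG9733, CG30287, CG30288 and CG30289. The other 3, CG11668, CG9377 and CG31205, were low in w1118 SH and not in w1118 GH. CG30288 and CG30289 lie 20 bases apart on 2R and CG30287 lies 15046 bases further. CG30288 was at 0 to 0.185 CPM in Or67dGAL4 and 0.0947 and 0.0958 CPM in fruLexA/fru4-40, against 0.606 to 0.997 CPM in w1118 SH and 1.09 to 1.48 CPM in w1118 GH. CG30289 was at 1.86 to 2.46 CPM in Or47b1 and 0.822 to 0.999 CPM in w1118 GH. CG31220 (RefSeq synonym SP6) had 0 to 0.109 CPM in Or67dGAL4 and 0.537 to 0.548 CPM in w1118 GH, with its highest level in fruLexA/fru4-40 (1.80 and 2.11 CPM). CG9377 had 2.93, 3.33 and 9.57 CPM in Or67dGAL4, at most 0.0831 CPM in w1118 SH, and 0, 0.454 and 1.83 CPM in w1118 GH. CG30287 and CG31205 are named for their synonym, after the values were seen.

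Genes lay close to both limits on either side. On the 0.3 CPM side, CG15800, CG33307 and CG33928 were just inside at group means of 0.299, 0.298 and 0.297 CPM, and CG7362, CG43702 and CG13085 just outside at 0.304, 0.304 and 0.305 CPM. On the 1 CPM side, CG2652, CG34185 and CG31659 were just inside with lowest libraries of 1.00, 1.04 and 1.05 CPM, and CG30286, CG13407 and CG7296 just outside at 0.999, 0.997 and 0.990 CPM. The number of genes went to 52 with 2 CPM asked of the on group and to 291 with 0.5 CPM, and the set of 50 low in w1118 SH went to 85 without fruLexA/fru4-40 replicate 2 and to 77 without w1118 SH replicate 3. Exons of 19 of the genes shared bases with another annotated gene, 2 of them over 50% of their length (CG11699, and CG31274, named after its values were seen).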

How the data were processed

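RNA-seq reads from pooled antennae were processed by the authors, who aligned reads of poly(A)-selected RNA to dm6 with MapSplice2, removed duplicates and counted reads per gene with featureCounts (use of strand not given in the sources used here) (SAMtools is also named in the processing notes). The deposited values are raw counts per gene, in a table of 14 libraries and a table with fruLexA/fru4-40 replicate 1. Gene symbols came from a table of gene names, which paired 17287 of 17490 IDs, and synonyms from RefSeq. CPM was the count divided by the library total. Counts were fitted with edgeR 4.0.16 (R 4.3.3; TMM, filterByExpr, group as the only factor, all 14 libraries, adjusted p under 0.05 within each comparison), and checked on simulated counts. DESeq2 1.42.0, other scalings, no filter, all 15 libraries, a replicate block and leaving out each library were alternatives. A fold against a group at 0 used 3 counts in its shallowest library as the floor.

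The members and lists were chosen with earlier results of these data known. Genes named are up to 8 per class of low groups with the highest mean CPM, members within 10 kb of another, members with fruLexA/fru4-40 replicate 1 or the w1118 groups on opposite sides, and the 3 nearest each limit on either side; other names are marked in the text. Replicates were separate pools of antennae, so p-values measure the spread between pools. No sequences are printed.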

Additional observations from a re-analysis of the deposited data

How the results depend on the processing

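The number of genes was 124 by the stated limits, 199 with a low limit of 0.5 CPM, 52 and 291 with 2 and 0.5 CPM asked of the on group, and 128 to 218 with a library left out, highest without fruLexA/fru4-40 replicate 2. Genes low in w1118 SH and not in w1118 GH numbered 42 to 85, genes low in w1118 GH and not in w1118 SH 2 to 8 (8 without w1118 GH replicate 2), genes low in both w1118 groups 24 to 72, genes low in all 3 mutants 7 to 9 and genes low in 1 or 2 mutants 38 to 48; leaving out libraries in these 5 classes was chosen after seeing the data. A group cut to 1 library reaches 1 CPM more easily, which is how fruLexA/fru4-40 enlarges the list. Genes called by edgeR numbered 44 to 52 in Or47b1, 48 to 58 in Or67dGAL4, 22 to 57 in fruLexA/fru4-40 and 0 to 7 in w1118 SH with a library left out, where a group of 1 library was assumed to vary like the others. At an adjusted p of 0.01, 29 were called in fruLexA/fru4-40 and 0 in w1118 SH. W1118 SH had 12 calls with DESeq2 and 1 with all 15 libraries. With 1 limit at 0.5 CPM, fruLexA/fru4-40 replicate 1 was on the side of the other replicates for 100 of 124 genes, and w1118 SH on the side of w1118 GH for 72 of 90. With the replicate block the counts were 53, 57, 45 and 4, within 1.5 times those without it. Deviations of same-numbered libraries from their group means correlated by 0.09 to 0.20 between Or47b1 and w1118 GH and -0.03 to 0.21 between Or67dGAL4 and w1118 GH. They correlated by -0.22 to -0.10 between fruLexA/fru4-40 and w1118 GH and -0.06 to 0.23 between w1118 SH and w1118 GH. Over all groups the mean was 0.08 for same-numbered libraries and -0.04 for the rest. The main fit did not take the numbers as pairs, and a batch shared by number was not tested. Between Or47b1 and Or67dGAL4 the same-numbered correlations reached 0.18 to 0.34, and replicates 3 of the 4 groups other than fruLexA/fru4-40 correlated by 0.16 to 0.34. With RLE, library totals, no filter or TMM library sizes each count stayed within 1.5 times. Depth limits the list: 42 of the genes had no group mean of 2 CPM.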
